A study of Mus musculus with 34 samples.

Results

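The genes described here are the secreted Wnt ligands, their Frizzled receptors and the secreted inhibitors of Wnt signalling, measured across the brain of the mouse 3 days after birth. The group holds 38 genes, namely 19 ligands (the Wnt genes), 10 receptors (Fzd1 to Fzd10) and 9 inhibitors (Sfrp1, Sfrp2, Sfrp4, Sfrp5, Dkk1, Dkk2, Dkk3, Frzb and Wif1). The members were taken by gene family and found on the array through the RefSeq accession of each probe. They took up 44 of the 55681 probes that are not controls, and 26582 of those probes could be matched to a gene symbol. Where 2 probes stand for 1 gene, which was the case for 6 members, the probe with the higher median signal over all fractions is reported unless stated otherwise.

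Transcriptome tomography was used, in which a whole brain is shaved into thin slices along a single axis and the slices are collected in order as fractions. Male C57BL/6J mice were used at 3 days of age, and 3 brains were cut, 1 along each axis, giving 15 coronal fractions, 8 horizontal fractions and 11 sagittal fractions. A fraction held 100 slices and was 500 μm wide, except sagittal fractions 1 and 11, each of which pools 2 of the 13 cut fractions. All mice were untreated animals of the same strain, sex and age, so the comparisons are between positions within 1 brain. Total RNA of each fraction was hybridised once, in a single colour, to an Agilent mouse array, and no fraction has a replicate array.

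Wnt proteins are lipid-modified secreted signals that bind a Frizzled receptor together with a co-receptor such as LRP6. In the best known branch this stabilises β-catenin, which enters the nucleus and acts with transcription factors of the TCF/LEF family, while other branches act on the cytoskeleton and on calcium. Secreted inhibitors work either by binding the ligand, as the Sfrp proteins, Frzb and Wif1 do, or by occupying the co-receptor, as Dkk1 does. In the developing brain the pathway is known for its part in dividing the neural tube into regions, in the growth of axons and synapses and in the formation of blood vessels.

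The value given for a fraction is the log2 normalized signal, which is the log2 of the background-subtracted signal less the log2 of the array's 75th percentile. A value of 0 therefore lies at the 75th percentile of that array, and values of different probes were not compared with each other. A probe counted as detected in a fraction where the scanner software marked it as well above background. The arrays lay on 5 slides, between 27011 and 34168 probes were detected on an array, and no spot was saturated. Neighbouring fractions were grouped into blocks (coronal fractions 1 to 3, 4 to 6, 7 to 9, 10 to 12 and 13 to 15, horizontal fractions 1 and 2, 3 and 4, 5 and 6, 7 and 8, and medial, intermediate and lateral sagittal fractions), and limma's moderated F-test over the blocks of a series was used across all probes with Benjamini-Hochberg adjustment. A gene was called when its adjusted p was under 0.05. Fractions of a block are neighbours in 1 brain and not replicates, so that these p-values compare positions with the spread between neighbours and do not reach beyond the 3 animals. In bulk RNA of a fraction, fewer cells that express a gene and less of its RNA per cell cannot be told apart.

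The labels give the number of a fraction but not the end of the brain at which the count starts, which was read from region markers. In the coronal series Pcp2, a gene of cerebellar Purkinje cells, was highest in fraction 1 at 6.19 and the hindbrain gene Hoxb5 in fraction 2 at 4.92, while Tbx21, which marks projection neurons of the olfactory bulb, was highest in fraction 15 at 3.46. Fraction 1 is thus called caudal and fraction 15 rostral. In the horizontal series the hypothalamic gene Agrp was highest in fraction 8 at 2.63, so fraction 8 is called ventral and fraction 1 dorsal. Fraction 1 also carried signal of the hindbrain gene Hoxb5, at 0.82, which was not detected in fractions 2 and 3. In the sagittal series Agrp was highest in fraction 6 at 1.83, and the cortical gene Emx1 was highest in the outermost fractions, at 1.98 in fraction 1 and 1.59 in fraction 11. Fraction 6 was taken as the middle, although 5 of the 7 hindbrain markers were highest in fraction 9.

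Promoters of members that changed at the same coronal positions are shown first. Wnt10a is named only. Wnt9b and Wnt3 follow each other on chromosome 11 with no other protein-coding gene between them in the RefSeq annotation and are transcribed away from each other, and Fzd10 and Wif1 fell at the same coronal position as this pair. Frzb and Wnt6 rose at the rostral end. The sequences are the 250 bases before the RefSeq start of the gene on GRCm38.p6, written 5′ to 3′ on the gene's own strand, and capitals mark the 5-base core of the TCF/LEF site, CTTTG, or its reverse complement CAAAG. Wnt9b lies at chr11:103749822-103750071 on the reverse strand, Wnt3 at chr11:103773925-103774174 on the forward strand, Fzd10 at chr5:128600856-128601105 on the forward strand, Wif1 at chr10:121033754-121034003 on the forward strand, Wnt6 at chr1:74771642-74771891 on the forward strand and Frzb at chr2:80447397-80447646 on the reverse strand.
Wnt9b: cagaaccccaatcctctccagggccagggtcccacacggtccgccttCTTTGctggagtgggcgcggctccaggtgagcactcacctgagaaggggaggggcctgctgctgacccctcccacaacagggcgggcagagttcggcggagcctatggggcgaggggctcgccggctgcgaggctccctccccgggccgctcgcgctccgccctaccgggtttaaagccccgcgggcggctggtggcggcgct
Wnt3: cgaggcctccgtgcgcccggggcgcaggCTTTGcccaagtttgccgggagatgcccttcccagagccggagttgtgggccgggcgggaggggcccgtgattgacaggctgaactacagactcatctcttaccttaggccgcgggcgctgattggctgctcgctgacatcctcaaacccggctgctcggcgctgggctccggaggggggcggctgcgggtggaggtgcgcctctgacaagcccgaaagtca
Fzd10: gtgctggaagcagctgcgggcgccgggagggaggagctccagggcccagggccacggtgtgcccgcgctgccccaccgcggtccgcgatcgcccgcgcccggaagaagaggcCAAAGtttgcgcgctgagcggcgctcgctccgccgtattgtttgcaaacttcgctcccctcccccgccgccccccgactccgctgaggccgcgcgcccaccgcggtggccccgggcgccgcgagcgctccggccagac
Wif1: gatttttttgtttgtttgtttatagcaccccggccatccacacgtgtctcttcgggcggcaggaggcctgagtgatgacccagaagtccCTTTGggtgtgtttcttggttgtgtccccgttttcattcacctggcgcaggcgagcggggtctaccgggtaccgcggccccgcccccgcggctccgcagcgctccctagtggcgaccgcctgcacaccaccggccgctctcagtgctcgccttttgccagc
Wnt6: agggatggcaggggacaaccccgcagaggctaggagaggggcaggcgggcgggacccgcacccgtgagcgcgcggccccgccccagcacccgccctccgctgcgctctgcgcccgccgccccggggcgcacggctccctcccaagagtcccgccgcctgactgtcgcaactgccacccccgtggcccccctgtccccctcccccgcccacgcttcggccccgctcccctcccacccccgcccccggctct
Frzb: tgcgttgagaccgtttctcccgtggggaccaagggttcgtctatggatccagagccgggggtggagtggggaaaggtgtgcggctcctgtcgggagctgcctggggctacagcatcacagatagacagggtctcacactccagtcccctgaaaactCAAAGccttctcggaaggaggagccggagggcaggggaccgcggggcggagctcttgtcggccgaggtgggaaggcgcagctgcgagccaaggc

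The core was found in 5 of the 6 windows, Wnt6 being the exception. Over all 32851 RefSeq promoters the same window held it in 48.6%, and over the 27 members with an entry in 13 (48.1%). The longer form CTTTGAT or ATCAAAG, which contains the core, was in none of the 6 windows, in 2 of the 27 member windows and in 3.2% of all. The bases G and C made up 62.8% to 79.6% of these windows, against a median of 52.4% over all promoters.

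Most of the family was still detected at 3 days. Of the 38 members, 28 were well above background in all 34 fractions, and this held for 11 of 19 ligands, 9 of 10 receptors and 8 of 9 inhibitors. Wnt2b, Wnt3a and Wnt8a were detected in no fraction and Wnt2 in 1, sagittal fraction 5. Another 6 members were detected in part of the fractions, namely Fzd5 in 27, Wnt16 in 31, Wnt9b in 28, Wnt8b in 18, Dkk1 in 16 and Wnt10b in 4. Of these ligands, Wnt3a, Wnt2b and Wnt8b are known from the cortical hem, a signalling centre of the embryonic forebrain.

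The probes of a gene did not always give the same picture. Wnt1, known from the embryonic boundary of midbrain and hindbrain, had 1 probe detected in all 34 fractions and another detected in none, and the SD of the former over the fractions was 0.20, with 18.8% of the detected probes varying less. Wnt8b likewise had a probe that was detected in no fraction. The probes of Fzd2 ran together along the coronal axis with an r of 0.95, those of Fzd5 with an r of 0.21 over 15 fractions. For Fzd5 and Fzd7 the dimmer probe was called in the coronal series (for Fzd5 also in the sagittal series) and the brighter probe was not, so the regional signal of these receptors is uncertain.

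How much each member varied over the brain was described by its SD over the 34 fractions. This SD had a median of 0.45 over the 33 members detected in every series, against 0.31 over all 34186 probes detected in every series. Frzb covered the widest range, 5.61 on the log2 scale from -2.91 to 2.70, followed by Sfrp5 with 5.36 and Wnt9b with 4.91. At the other end stood Fzd3, a receptor needed for the growth of long axon tracts, with a range of 0.65 and an SD of 0.14, and 3.52% of the detected probes varied less. The next lowest SD values were 0.20 for Wnt1 and 0.23 for Fzd8, with 18.8% and 26.6% of the detected probes varying less.

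**Figure D1:**
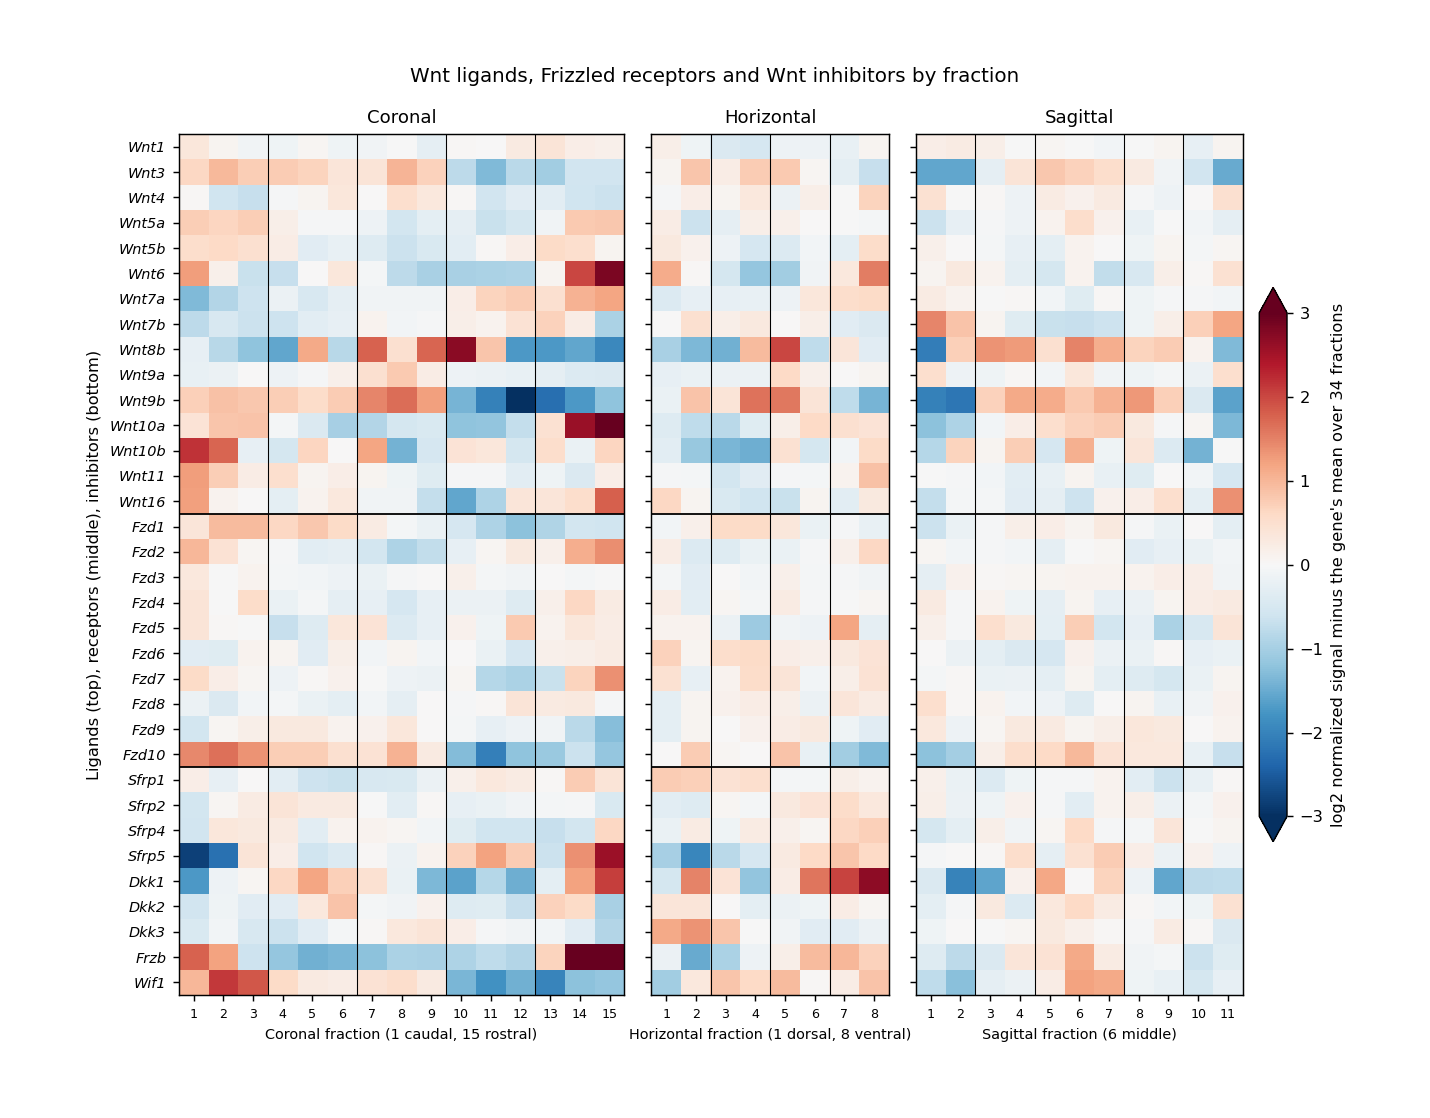
Heat map of the 34 members detected in more than 1 fraction (rows, grouped into ligands, receptors and inhibitors) across the 34 fractions (columns, thin lines separate blocks). Colour gives the log2 normalized signal minus the gene's own mean over all fractions, with red above and blue below that mean and the scale ending at 3. Wnt3, Wnt9b, Fzd10 and Wif1 change from red to blue between coronal fractions 9 and 10, Frzb, Wnt10a and Wnt6 are darkest red in coronal fractions 14 and 15, and Fzd3 is pale throughout.

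Along the rostro-caudal axis, 34 members could be tested in the coronal series and 18 were called (52.9%), where 38.5% of all 35247 tested probes were called. Of these, 13 members (38.2%) also differed by at least 1 on the log2 scale between their highest and lowest block, against 15.7% of all tested probes. The called members were 10 of the 15 tested ligands, 4 of 10 receptors and 4 of 9 inhibitors. The difference between the highest and lowest block had a median of 1.04 over the tested members and of 0.65 over all tested probes. Different slides met in the middle of the series, since fractions 1 to 8 lay on slide 2 and fractions 9 to 15 on slide 3 except for fraction 12 on slide 5. With slide as a term, in which fraction 12 is fitted by its own slide, 7 members were called (Wnt5a, Wnt5b, Wnt9a, Wnt9b, Wnt10a, Fzd10 and Wif1) and 6.45% of all probes.

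A first set of members was high in the caudal and middle fractions and fell sharply between fractions 9 and 10. Wnt3, a ligand of the β-catenin branch, ran from -2.95 over a median of -1.24 to -0.62. It lay at -0.94 in fraction 9 and at -2.42 in fraction 10, and every fraction behind this step, 1 to 9, was higher than every fraction in front of it. Its block means were -0.86 ± 0.17 (SD, n = 3) in fractions 1 to 3 and -2.61 ± 0.30 (SD, n = 3) in fractions 10 to 12, a difference of 1.74 ± 0.20 (SE) or 3.35-fold with an adjusted p of 0.000223 (limma). Wnt9b, its neighbour on the chromosome and known from the formation of kidney tubules, ran from -5.97 over -2.02 to -1.06 and stood at -1.51 in fraction 9 and -4.12 in fraction 10. Of fractions 10 to 15 it was detected only in 10 and 15. Its means were -1.28 ± 0.23 (SD, n = 3) in fractions 7 to 9 and -4.96 ± 0.94 (SD, n = 3) in fractions 10 to 12, where 1 fraction was detected, and the measured difference of 3.67 ± 0.38 (SE) had an adjusted p of 0.000165 (limma).

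The receptor Fzd10 and the inhibitor Wif1, which binds Wnt proteins directly, showed the same step. Fzd10 ran from -2.44 over 0.04 to 1.26 and went from -0.13 in fraction 9 to -1.69 in fraction 10. No fraction from 10 to 15 reached the level of any fraction from 1 to 9. The difference between fractions 1 to 3 and 10 to 12 was 3.00 ± 0.25 (SE), or 8.02-fold, with an adjusted p of 8.23e-05 (limma), the smallest among the members in this series. Wif1 ran from -2.50 over -0.25 to 1.61 and went from -0.25 in fraction 9 to -1.88 in fraction 10, and its highest values, 1.61 and 1.35, were those of fractions 2 and 3. Its difference between the same blocks was 3.20 ± 0.28 (SE), or 9.17-fold (adjusted p 0.000101, limma). Fractions 9 and 10 lay on the same slide, so the step of these 4 genes is seen within slide 3. With slide as a term the adjusted p was 0.0111 for Wnt9b, 0.0287 for Fzd10, 0.0359 for Wif1 and 0.0561 for Wnt3, while within slide 3 alone, where fraction 9 is the only array of its block and is assumed to vary like the others, Wnt9b differed by 2.94 with an adjusted p of 0.196. Region markers also differed between these blocks. In units of the array's 75th percentile, the 7 hindbrain markers summed to 27.0 to 70.8 in fractions 1 to 3. Their sum was already down to 0.120 to 0.913 in fractions 7 to 9, against 0.228 to 0.60 in fractions 10 to 12. The 5 cerebellar markers summed to 42.4 to 91.5, 1.05 to 3.76 and 1.01 to 1.94 in the same blocks. The 4 thalamic markers fell without overlap from fractions 7 to 9 (5.21 to 9.93) to fractions 10 to 12 (2.22 to 3.64). The 9 hypothalamic markers did so too (17.6 to 42.3 and 3.47 to 8.78). Striatal and olfactory bulb markers rose without overlap between these 2 blocks. The part of these regions in the signal of these genes was not tested.

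Fzd1, a receptor widely used in the brain, fell more gradually. It ran from 0.06 over 1.24 to 2.24, with its highest values in fractions 2 and 3, passed from 1.10 in fraction 9 to 0.79 in fraction 10 and was lowest in fraction 12. Fractions 1 to 3 averaged 2.04 ± 0.34 (SD, n = 3) and fractions 10 to 12 averaged 0.41 ± 0.37 (SD, n = 3), a difference of 1.63 ± 0.21 (SE) with an adjusted p of 0.000506 (limma) that rose to 0.177 with slide as a term. Wnt5a, a ligand that mostly works without β-catenin, was high at both ends. It ran from -0.06 over 0.57 to 1.41, lay between 1.25 and 1.35 in fractions 1 to 3, and reached 1.39 and 1.41 in fractions 14 and 15. The difference between fractions 1 to 3 and 10 to 12 was 1.19 ± 0.21 (SE), with an adjusted p of 0.00423 (limma) and of 0.0484 with slide as a term.

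**Figure D2:**
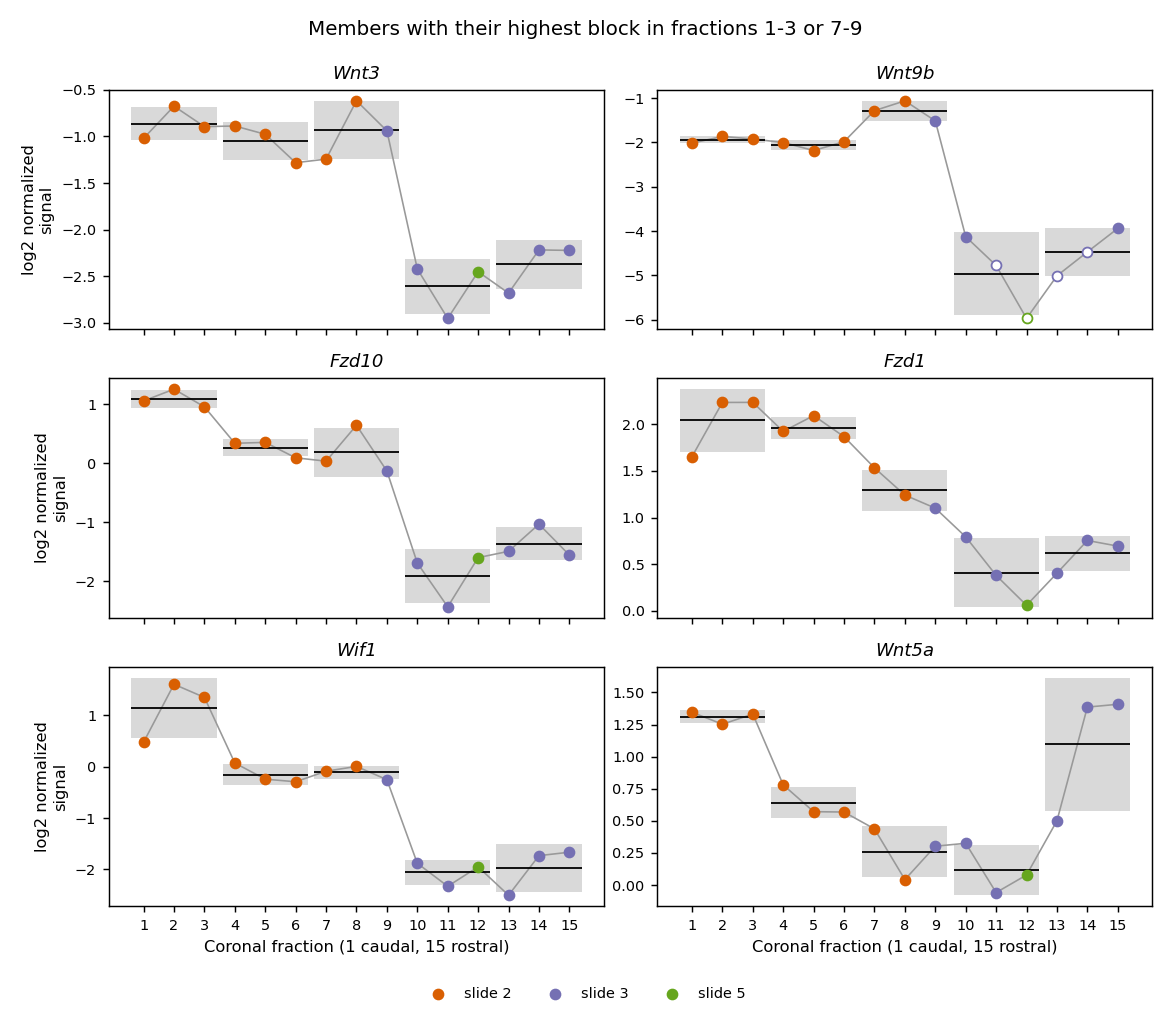
Log2 normalized signal (vertical axes, a separate scale for each gene) of Wnt3, Wnt9b, Fzd10, Fzd1, Wif1 and Wnt5a in the 15 coronal fractions (horizontal axis). Points are single arrays, filled where well above background and open otherwise, and coloured by slide, with bars and grey bands for the mean and SD of each block of 3 fractions. Wnt3, Wnt9b, Fzd10 and Wif1 drop between fractions 9 and 10, which lie on the same slide, and Wnt5a is high at both ends.

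A second set was highest at the rostral end. Frzb, a secreted Frizzled-related protein that binds Wnt ligands, ran from -2.82 over -2.27 to 2.70 and had its highest values in fractions 15 and 14, at 2.70 and 1.78. Fractions 1 and 2 came next, at 0.39 and -0.17, and fractions 3 to 12 were all lower than these and fraction 13. The block of fractions 13 to 15 averaged 1.26 ± 1.76 (SD, n = 3) and that of fractions 4 to 6 averaged -2.71 ± 0.14 (SD, n = 3), a difference of 3.97 ± 0.73 (SE) or 15.6-fold with an adjusted p of 0.00545 (limma) and of 0.0659 with slide as a term. Wnt10a, known from teeth, hair and skin, ran from -4.12 over -3.33 to 0.15 and was highest in the same fractions, 15 and 14, at 0.15 and -0.32. Its difference between fractions 13 to 15 and 10 to 12 was 3.07 ± 0.51 (SE), or 8.40-fold, with an adjusted p of 0.00408 (limma) and of 0.0409 with slide as a term. Wnt6, which neighbours Wnt10a on chromosome 1 with no protein-coding gene between, ran from -1.15 over -0.24 to 2.66, again highest in fractions 15 and 14, followed by fraction 1 at 1.09. Its difference between fractions 13 to 15 and 10 to 12 was 2.59 ± 0.62 (SE) with an adjusted p of 0.0338 (limma) and of 0.153 with slide as a term.

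Markers of the olfactory bulb and of tissue around the brain moved with this set. The 5 olfactory bulb markers, all highest in fraction 15, summed to 14.2 to 89.0 times the array's 75th percentile in fractions 13 to 15 and to 3.96 to 5.55 in fractions 10 to 12. The summed linear signal of the 8 meningeal markers, in units of the array's 75th percentile, was 72.8 to 205 in fractions 13 to 15 and 77.2 to 175 in fractions 1 to 3, against 40.8 to 45.6 in fractions 10 to 12, with all 8 detected in each block. The 4 markers of olfactory sensory neurons summed to 4.37 to 29.4 in fractions 13 to 15, where all 4 were detected, and to 4.43 to 4.72 in fractions 10 to 12, where 3 were. Omp, which defines these neurons, was at 0.50 in fraction 14 and 2.16 in fraction 15 and between -2.86 and -2.24 in fractions 1 to 13. The 4 endothelial markers summed to 52.7 to 58.0 in fractions 13 to 15. In fractions 10 to 12 they summed to 32.6 to 49.2, and in fractions 7 to 9 to 27.7 to 33.2. The part of these tissues in the signal of the rostral members, including Fzd2, Fzd4 and Wnt7a, was not tested. With fractions 14 and 15 left out, which was tried after the data were seen, fraction 13 stood alone in its block. The difference of Frzb was then 2.00, that of Wnt10a 1.50 and that of Wnt6 1.03.

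Fzd2, Wnt7a and Dkk1 were also highest rostrally. The receptor Fzd2 was high at both ends, running from 0.73 over 1.69 to 3.05 with 2.74 in fraction 14, 3.05 in fraction 15 and 2.64 in fraction 1. Fractions 13 to 15 exceeded fractions 7 to 9 by 1.62 ± 0.30 (SE), or 3.07-fold, with an adjusted p of 0.00953 (limma) and of 0.0659 with slide as a term. The other probe of Fzd2 had its highest block mean in fractions 1 to 3, though its highest single value, -1.23, was also in fraction 15. Wnt7a, which acts together with Wnt7b on blood vessels of the brain, climbed over nearly the whole axis, from -0.72 in fraction 1 over a median of 0.50 to 1.78 in fraction 15. Fractions 13 to 15 averaged 1.50 ± 0.37 (SD, n = 3) against -0.35 ± 0.35 (SD, n = 3) in fractions 1 to 3, a difference of 1.85 ± 0.22 (SE) with an adjusted p of 0.000708 (limma) and of 0.0815 with slide as a term. Dkk1, an inhibitor that blocks the co-receptors LRP5 and LRP6, was detected in 8 of 15 fractions and ran from -6.74 over -5.16 to -2.95, with its highest values in fractions 15, 14 and 5. It was well above background in no fraction from 10 to 12, so its level in fractions 13 to 15 was at least 1.55-fold higher (adjusted p 0.0382, limma, and 0.112 with slide as a term). Only 5 of the 15 fits that each left out a fraction still called Dkk1, and 6 called Wnt6.

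**Figure D3:**
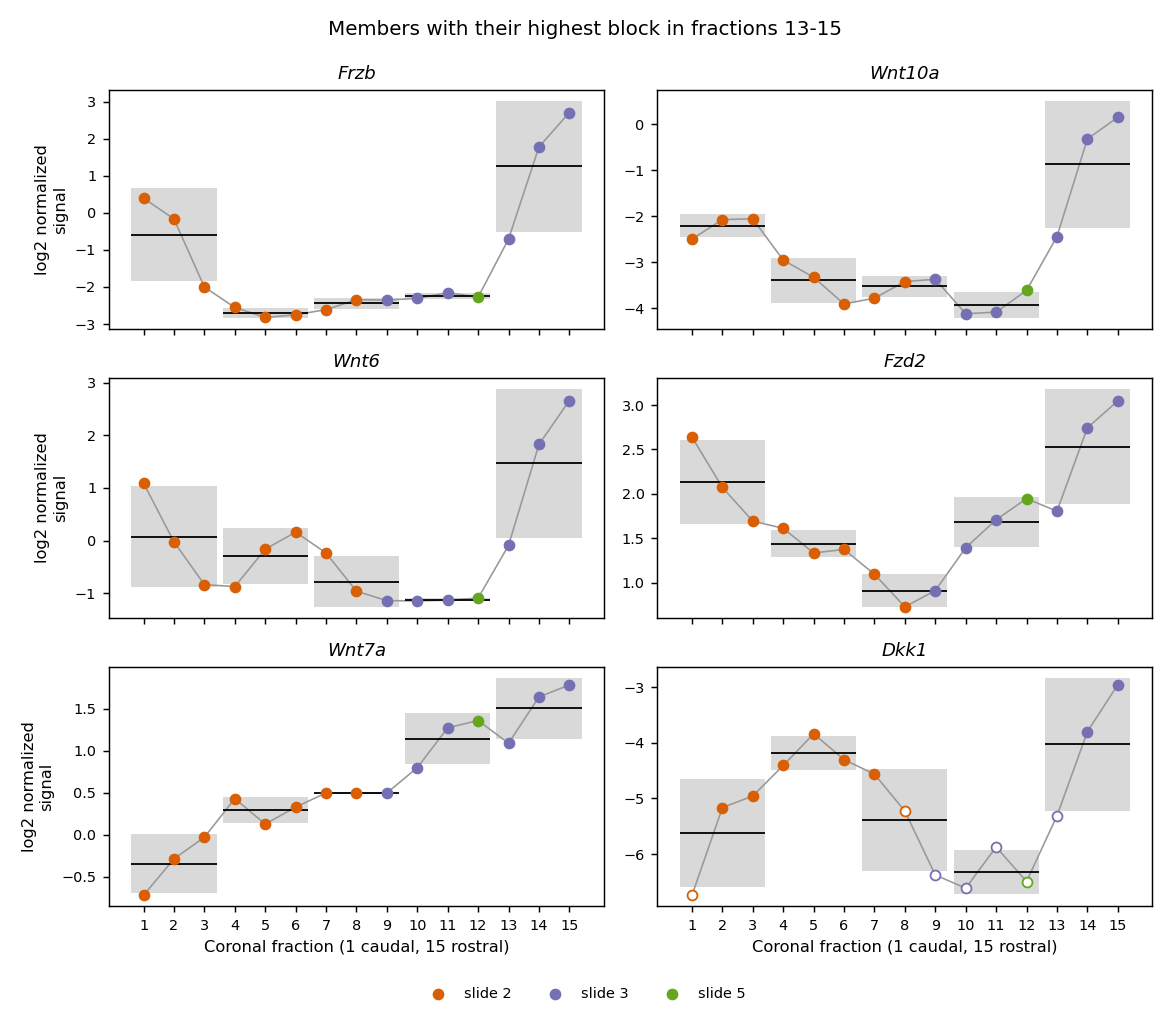
Log2 normalized signal of Frzb, Wnt10a, Wnt6, Fzd2, Wnt7a and Dkk1 in the 15 coronal fractions, drawn as in the plot of Wnt3 and Wnt9b by coronal fraction (points are single arrays coloured by slide, open where not well above background, bars and bands are block means and SD). Fractions 14 and 15 hold the highest values of each gene, Frzb, Wnt6 and Fzd2 rise again in fraction 1, and Wnt7a rises along most of the axis.

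The other called members differed less. Wnt5b, a relative of Wnt5a, was higher in fractions 1 to 3 than in fractions 7 to 9 by 1.04 ± 0.18 (SE) with an adjusted p of 0.00574 (limma), and Wnt11, another ligand known for cell movements in the embryo, by 0.87 ± 0.24 (SE) with an adjusted p of 0.0416 (limma). Wnt9a and Wnt4, the latter known from kidney and gonad, were highest in fractions 7 to 9 and lowest in fractions 13 to 15, by 0.87 ± 0.14 (SE, adjusted p 0.00495, limma) and 0.79 ± 0.22 (SE, adjusted p 0.0357, limma). Their highest values both fell in fraction 8, at 0.05 and -0.53. The inhibitor Sfrp1 and the receptor Fzd4, which is known for its part in vessels of the retina, were highest in fractions 13 to 15, by 0.93 ± 0.18 (SE, adjusted p 0.00804, limma) and 0.67 ± 0.17 (SE, adjusted p 0.0144, limma). With slide as a term only Wnt5b and Wnt9a of these 6 were still called. Of the 15 fits that each left out a fraction, 3 still called Wnt11 and 7 called Wnt4.

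The remaining 16 tested members were not called along this axis. Fzd9, a receptor found in the hippocampus, missed the threshold narrowly with a difference of 0.97 and an adjusted p of 0.0512 (limma), its lowest values of 1.20 and 1.67 lying in fractions 15 and 14. Sfrp5 had a difference of 2.64 that was not called (adjusted p 0.0869, limma), since it changed within its end blocks, from -3.73 in fraction 1 to -0.55 in fraction 3 and from -1.58 in fraction 13 to 1.63 in fraction 15. Wnt8b was detected in 6 coronal fractions and highest in fraction 10, at -1.83, with -6.26 in fraction 12. Dkk3, a divergent Dickkopf protein, was highest in fraction 9 at 3.90 and lowest in fraction 15 at 2.64 (adjusted p 0.0709, limma). The others were Wnt1, Wnt7b, Wnt10b, Wnt16, Fzd3, Fzd5, Fzd6, Fzd7, Fzd8, Sfrp2, Sfrp4 and Dkk2.

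From the middle of the brain to its sides, 33 members could be tested in the sagittal series and 7 were called (21.2%), against 9.66% of all 34411 tested probes. All 7 differed by at least 1 on the log2 scale, as did 3.09% of all tested probes. They were the ligands Wnt3, Wnt7b, Wnt9b and Wnt10a, the receptor Fzd10 and the inhibitors Wif1 and Frzb. Of these, 6 were highest in the medial block, fractions 5 to 7, and Wnt7b was highest in the lateral block, fractions 1, 2, 10 and 11. The median difference was 0.33 over the tested members and 0.27 over all probes.

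Wnt9b ran from -4.92 over -2.03 to -1.45 and was detected in 9 of 11 fractions, all but 1 and 2. The fractions from 3 to 9 lay at -2.06 or above and the 4 lateral fractions at -3.17 or below. The medial block exceeded the lateral block by a measured 2.54 ± 0.37 (SE), with 2 of the 4 lateral fractions detected and an adjusted p of 0.00426 (limma). Wnt3 ran from -3.21 over -1.73 to -0.82 and likewise showed no overlap between the lateral fractions, at most -2.21, and the others, at least -1.90. Its medial mean was -0.96 ± 0.15 (SD, n = 3) and its lateral mean -2.94 ± 0.48 (SD, n = 4), a difference of 1.97 ± 0.25 (SE) with an adjusted p of 0.00448 (limma).

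Wnt7b, which is needed with Wnt7a for the vessels that enter the brain, ran the opposite way. It ran from -0.83 over -0.07 to 1.32, was lowest in fractions 5, 6 and 7, between -0.83 and -0.76, and rose towards both sides to 1.32 in fraction 1 and 1.05 in fraction 11. The lateral mean was 0.92 ± 0.33 (SD, n = 4) and the medial mean -0.80 ± 0.04 (SD, n = 3), a difference of 1.72 ± 0.18 (SE) or 3.29-fold with an adjusted p of 0.00279 (limma), the smallest among the members in this series. The cortical gene Emx1 lay between 1.15 and 1.98 in the lateral block and between -0.74 and -0.03 in the medial block, and the part of cortical tissue in the signal of Wnt7b was not tested.

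Fzd10 was 1.46 ± 0.22 (SE) higher in the medial than in the lateral block (adjusted p 0.00754, limma), Wif1 1.55 ± 0.27 (SE, adjusted p 0.0160, limma), Wnt10a 1.51 ± 0.29 (SE, adjusted p 0.0216, limma) and Frzb 1.15 ± 0.23 (SE, adjusted p 0.0303, limma). Wif1 was highest in the middle fractions 6 and 7, at 0.69 and 0.62, and lay below 0 in all others. Without fraction 6, Wnt10a, Frzb and Wif1 were no longer called and 4 members remained called, namely Wnt3, Wnt7b, Wnt9b and Fzd10. Of the 11 fits that each left out a fraction, 4 still called Frzb, 6 Wnt10a and 9 Wif1. The medial block was also higher than the lateral block in the summed markers of the olfactory bulb (11.5 to 15.1 against 1.68 to 2.97). The same held for the hindbrain (10.3 to 10.5 against 0.0798 to 2.89), thalamus (7.35 to 8.33 against 2.54 to 3.18), hypothalamus, midbrain and cerebellum. Cortical (19.5 to 27.4 against 41.1 to 63.2), striatal and endothelial markers were lower medially. Meningeal markers were at most 79.8 medially and at least 78.1 laterally. The part of these tissues was not tested. Fractions 2 to 9 shared slide 4. Within that slide the lateral block is fraction 2 alone, in which Wnt9b was not detected, and this array is assumed to vary like the others. There Wnt3, Wnt9b and Wnt10a were called, with adjusted p-values of 0.0494, 0.0205 and 0.0443 (limma), and Wnt7b differed by 1.52 with an adjusted p of 0.0550. With slide as a term none of the 7 was called, at adjusted p-values from 0.0517 for Wnt9b to 0.241 for Wnt10a, and 0.32% of all probes were.

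**Figure D4:**
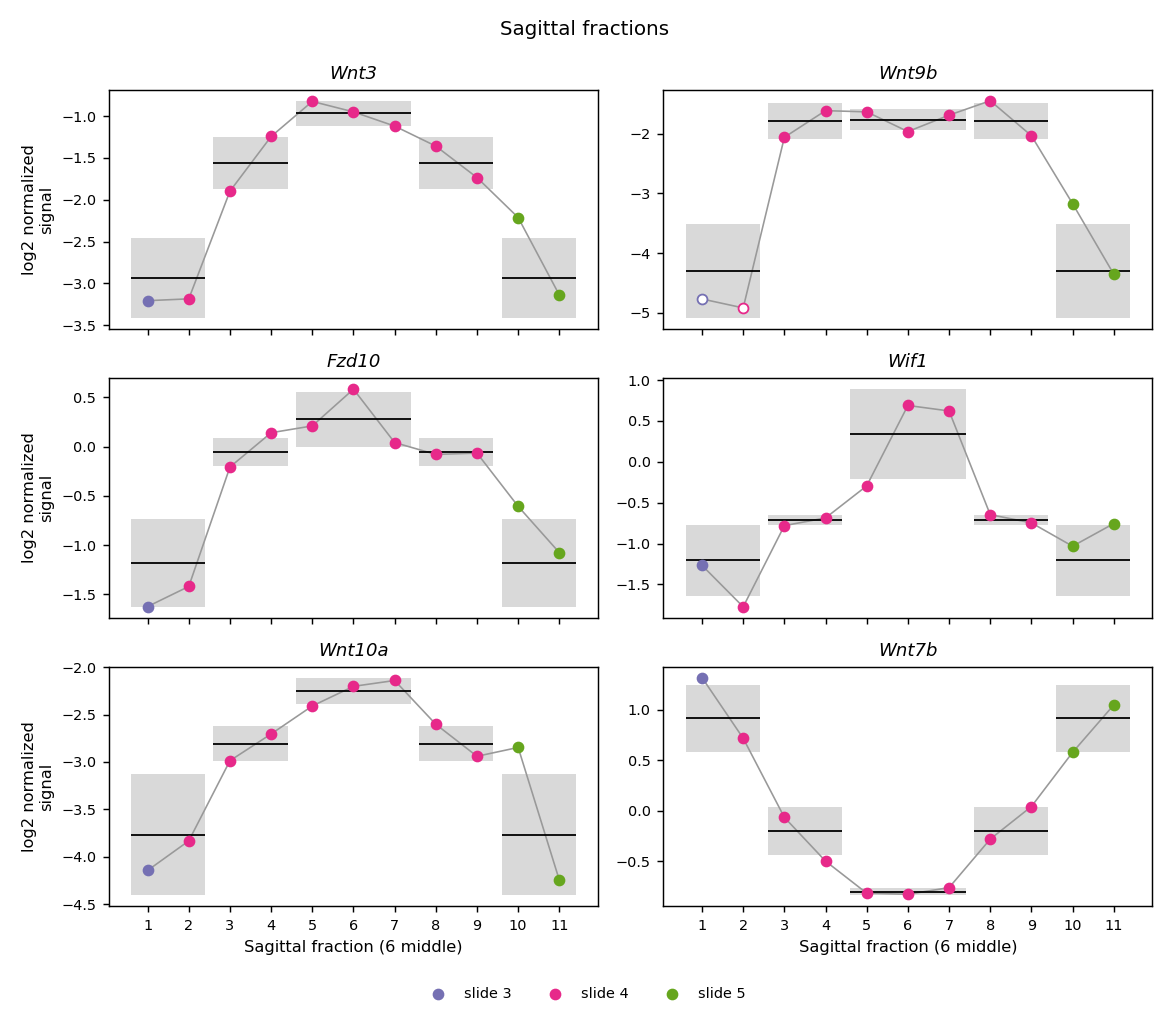
Log2 normalized signal of Wnt3, Wnt9b, Fzd10, Wif1, Wnt10a and Wnt7b in the 11 sagittal fractions, with fraction 6 in the middle, drawn as in the coronal plots (points are single arrays coloured by slide, bars and bands are the mean and SD of the medial, intermediate and lateral blocks, the latter drawn on both sides). Wnt7b is lowest in the middle fractions and highest in fractions 1 and 11, and the other 5 genes are highest in or near the middle.

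Both sides of the sagittal brain could be set against each other as mirror fractions, whose numbers add up to 12. Over the 33 members detected in at least 2 sagittal fractions, the median absolute difference of the 5 mirror pairs was 0.17 at the median member, from 0.02 for Wnt9a to 0.61 for Wnt8b. For Wnt7b it was 0.14 against a range of 2.15 over the series, and for Wnt3 0.16 against 2.38. Wnt9b had a larger difference in a single pair, 1.75.

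From dorsal to ventral, none of the 33 tested members was called in the horizontal series by limma, as against 59 of 33460 probes (0.176%), although 14 members had an unadjusted p under 0.05 and 11 differed by at least 1 on the log2 scale. The series has 8 fractions in 4 blocks and leaves 4 residual degrees of freedom. Other settings called 0 to 6 members and 0% to 13.8% of all tested probes. The members called by at least 1 of them were Wnt6, Wnt7a, Wnt9b, Fzd10, Sfrp1, Sfrp2, Sfrp5 and Dkk3. Their values are therefore given as a description.

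The 3 smallest adjusted p-values of the members belonged to the inhibitors Sfrp5, Sfrp1 and Sfrp2, which bind Wnt ligands. Sfrp5 was lowest dorsally, at -1.94 and -2.89 in fractions 1 and 2, and highest ventrally, at -0.09 and -0.34 in fractions 7 and 8, a difference of 2.20 ± 0.33 (SE) with an adjusted p of 0.0714 (limma). Dkk3 was arranged the other way, with 4.65 and 4.85 in fractions 1 and 2 and between 3.17 and 3.50 in fractions 4 to 8 (difference 1.49 ± 0.28 (SE), adjusted p 0.0966, limma). Sfrp1 was also highest dorsally, at 0.92 and 0.88, and lowest in fractions 5 and 6, at 0.09 in each (difference 0.81 ± 0.12 (SE), adjusted p 0.0733, limma). Its relative Sfrp2 rose from 0.39 and 0.31 in the dorsal fractions to 1.23 and 1.00 in the ventral fractions (difference 0.77 ± 0.14 (SE), adjusted p 0.0950, limma). Dkk1 was detected in 5 fractions and highest in fraction 8, at -2.34.

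Among the ligands, Wnt10a was 1.04 ± 0.23 (SE) higher in fractions 7 and 8 than in fractions 1 and 2 (adjusted p 0.0956, limma). Wnt7a rose from 0.18 in fraction 1 to 1.17 in fraction 8 (difference 0.88 ± 0.18 (SE), adjusted p 0.118, limma). Wnt9b and Fzd10 were lowest ventrally, at -4.13 and -1.71 in fraction 8. Wnt6 was high at both surfaces, at 0.94 in fraction 1 and 1.36 in fraction 8, and lowest in fractions 4 and 5, at -1.33 and -1.20. The summed meningeal markers were 131 to 233 times the array's 75th percentile in fractions 7 and 8, 81.0 to 126 in fractions 1 and 2 and 57.2 to 71.3 in fractions 3 and 4, and their part in the Wnt6 signal was not tested. The receptors were the most even group, with a median difference of 0.46 against 0.88 for the ligands and 1.07 for the inhibitors, the median of all tested probes being 0.49.

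**Figure D5:**
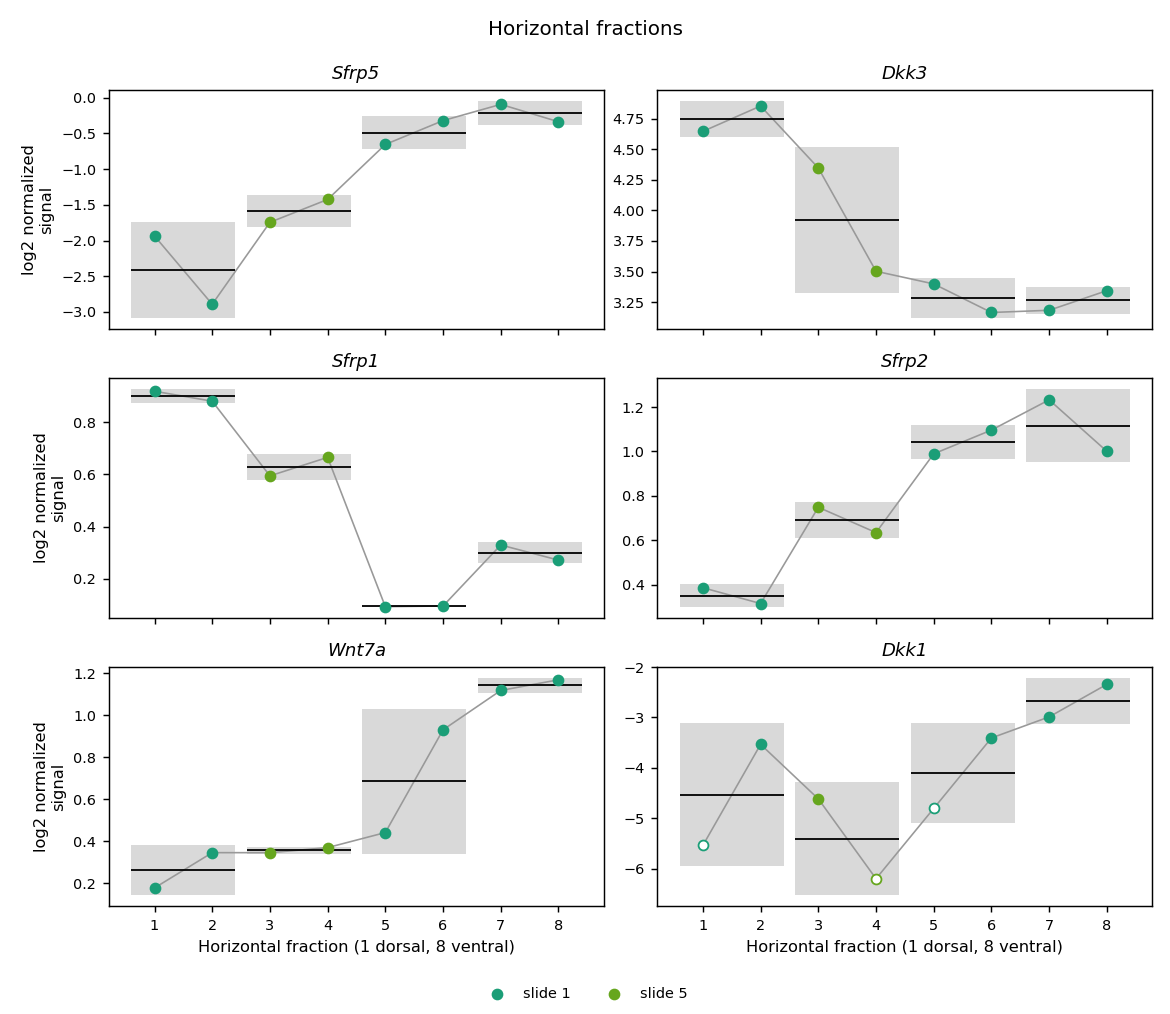
Log2 normalized signal of Sfrp5, Dkk3, Sfrp1, Sfrp2, Wnt7a and Dkk1 in the 8 horizontal fractions from dorsal to ventral, drawn as in the coronal plots with blocks of 2 fractions. Sfrp5, Sfrp2 and Wnt7a rise towards the ventral fractions and Dkk3 and Sfrp1 fall, though no member passed the adjusted threshold in this series.

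The likeness of the members' patterns was described by Pearson's r over all 34 fractions, which come from 3 animals and share slides. Of 528 pairs among the 33 members detected in every series, 3 reached an r of 0.85. They were Wnt3 with Wnt9b (0.90), Wnt3 with Fzd10 (0.88) and Wnt10a with Frzb (0.87). Within the series the pair of Wnt3 and Wnt9b had an r of 0.93 over 15 coronal, 0.95 over 8 horizontal and 0.95 over 11 sagittal fractions. No pair reached -0.85, and the lowest r was -0.81 for Fzd2 with Fzd9, just below Wnt7a with Fzd10, also -0.81.

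Being neighbours on a chromosome did not go with a like pattern in every case. Besides Wnt9b and Wnt3, 3 other pairs of members follow each other with no protein-coding gene between. Wnt6 and Wnt10a had an r of 0.83 over the coronal, 0.24 over the horizontal and -0.72 over the sagittal fractions. Of the pairs Wnt3a with Wnt9a and Wnt10b with Wnt1, the first gene was detected in 0 and 4 fractions, so no likeness could be read.

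Against all 34186 probes, the number with an r of at least 0.85 was largest for Wnt6, with 147. The genes most alike to Wnt6 were Adamts2, a protease that processes collagen (r 0.97), the lipid carrier Apod (0.96) and Itih2, a matrix-binding protein of serum (0.96). For Wnt3 they were Wnt9b, the zinc finger gene Zfp423 (0.89) and Fzd10, and for Wnt9b they were Wnt3 and the vesicular glutamate transporters Slc17a6 (0.90) and Slc17a8 (0.88). Those of Fzd10 were Tmem132c (0.91), the orphan nuclear receptor Rora (0.90) and Cpne9 (0.89). Fzd1 ran most like Mab21l1 (0.93), Esrrb (0.88) and Irx2 (0.88), and Wif1 like Slc41a3, Entpd5 and Lman1 (all 0.86).

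Among the rostral set, Wnt10a and Frzb shared their most alike gene, Kctd14 (0.91 and 0.90). Next came Tmem132d (0.91) and Mybpc1 (0.90) for Wnt10a, and Matn4 (0.88) and Crybg1 (0.87) for Frzb. Fzd2 was most alike to the actin regulator Gsn (0.91), Hyal1 (0.90) and Evc (0.90). Wnt7a ran with the transcription factors Sp8 (0.89) and Sp9 (0.87) and with Ccsap (0.87), Wnt5a with Zadh2 (0.91), Plscr1 (0.89) and the basement membrane gene Nid1 (0.89), and Wnt7b with Tcte1 (0.96), the synaptic gene Cplx2 (0.91) and Dok4 (0.89). Dkk1 had 1 probe above the threshold, of Gng4 (0.86), followed by Rsu1 (0.77) and Nptx2 (0.75). In 15 of the 33 members no probe reached 0.85, Dkk3, Sfrp2, Sfrp5, Fzd3 and Wnt4 among them.

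Beyond the ligands, receptors and inhibitors, 52 other genes of the pathway were examined. In the coronal series 49 could be tested and 31 were called, 16 of them with a difference of at least 1, where 38.5% and 15.7% of all tested probes were. Of the signal transduction genes 11 of 18 were called, of the target genes 6 of 7, of the co-receptor and R-spondin genes 10 of 16, of the other secreted inhibitors 3 of 5 and of the genes for secretion and removal 1 of 3.

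Tcf7l2, a TCF/LEF transcription factor known from the thalamus, showed the largest coronal difference of these, 3.54 ± 0.60 (SE, adjusted p 0.0048, limma). Its values ran from 2.41 to 2.97 in fractions 7 to 9 and from -1.13 to -0.24 in fractions 13 to 15. Its dimmer probes differed by 5.02 (adjusted p 0.0105, limma) and by 0.70 (adjusted p 0.0963, limma), the latter not called. Sp5, a target gene of β-catenin, was 2.99 ± 0.33 (SE) higher in fractions 1 to 3 than in fractions 10 to 12 (adjusted p 0.000272, limma), the blocks that also separated Wnt3, Fzd10, Fzd1 and Wif1. The targets Nkd1 (1.69) and Ccnd1 (1.18), the factor Tcf7l1 (1.17) and the inhibitor Draxin (1.21) were highest in the same caudal block. The target Axin2 was not called by its brighter probe (0.61, adjusted p 0.311, limma) but by its dimmer probe (0.98, adjusted p 0.00185, limma). Over the 34 fractions the r of the brighter probe was 0.02 with Wnt9b and 0.04 with Wnt3. The called targets Nkd2 (0.63) and Myc (0.90) were lowest in the caudal block. Highest in fractions 13 to 15 were the R-spondin receptor Lgr5 (2.41), the inhibitor Apcdd1 (1.57), the receptor Ror2 (1.30), the target Tnfrsf19 (1.29), the factors Tcf7 (1.24) and Lef1 (1.21) and Wls (1.09), which carries Wnt proteins to the cell surface. Rspo3 (1.50) was highest in fractions 7 to 9, and Lgr4 (1.29) and the Dkk1 receptor Kremen2 (1.10) in fractions 4 to 6. The dimmer probes of Nkd1, Tnfrsf19 and Tcf7 were not called (adjusted p 0.203, 0.120 and 0.441, limma), while that of Draxin was.

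In the sagittal series 8 of 48 tested pathway genes were called (9.66% of all tested probes), 4 of them with a difference of at least 1 (3.09%), and all 4 were higher in the medial than in the lateral block. These were Tcf7l2 by 3.81 ± 0.50 (SE, adjusted p 0.00382, limma), Lgr5 by 2.47 ± 0.53 (SE, adjusted p 0.0282, limma), Sp5 by 1.53 ± 0.21 (SE, adjusted p 0.00706, limma) and the R-spondin Rspo1 by 1.32 ± 0.26 (SE, adjusted p 0.0230, limma). Tcf7l2 lay between 2.40 and 2.76 in sagittal fractions 4 to 8 and at -2.12 and -2.05 in fractions 1 and 2. Over the 34 fractions its r was 0.84 with Wnt9b and 0.77 with Wnt3. In the horizontal series none of the 48 tested pathway genes was called.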

How the data were processed

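Per the labels and the study's methods, the authors hybridised total RNA of each fraction to a single-colour Agilent array and read it with Feature Extraction 10.10.1.1, which gives a background-subtracted intensity per spot. The deposited intensity files of 34 arrays were used. A deposited table by the authors, holding log2 values of 43199 probes, was set against these signals. Of its single values, 99.917% lay within 0.02 of the log2 intensity less a constant per array, so that the table served as an alternative. Spots of a probe were averaged, and the log2 intensity less the log2 of the array's 75th percentile was tested with limma 3.58.1 (R 4.3.3) over the blocks of each series, with Benjamini-Hochberg adjustment over all probes well above background in at least 2 fractions. Descriptions were computed in Python 3.11.15. The procedure was tested on simulated data. The members and lists were chosen with earlier results of these data known. Members described in full were the 12 called members with the largest coronal difference, detected in at least 4 coronal fractions, and the 3 members called in the other series with the largest difference there. The single arrays per fraction limit the precision. Alternatives were the scaling, normexp with offset 50 (on median signals), the authors' table, the detection filter, 1 fit of all arrays, slide as a term or alone, a smooth function of position, a variance trend and each fraction left out. Leaving out coronal fractions 14 and 15, or horizontal fraction 1, was added after seeing the data. Region and tissue markers were used to orient the series.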

Additional observations from a re-analysis of the deposited data

Results flagged for a closer look

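In the horizontal series, 35 groups of 8 values (33 members and 2 measures of the arrays) were searched for a sample far from the others, a rule by which chance picks out about 1 in 20 groups, and 2 were found. Wnt11 lay at -2.11 in the ventral fraction 8, while the other fractions lay between -3.55 and -2.91. Wif1 lay at -1.56 in the dorsal fraction 1, while the other fractions lay between -0.47 and 0.43.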

How the results depend on the processing

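With slide as a term, 7 of the 18 members called in the coronal series were called, 6 of them with a difference of at least 1 (13 in the report). The arrays of slide 2 alone called 3 (2 with that difference) and those of slide 3 alone 0 (0). In the sagittal series, slide as a term called 0 members in place of 7 (0 with that difference), slide 4 alone 3 (3) and a smooth function of position 11. In the horizontal series, where limma called 0, normexp called 5 (2 with that difference), probes well above background in every fraction 2 (1), 1 fit of all 34 arrays 6 (3), the smooth function 4 (3) and the variance trend 4 (2). The cause of these shifts was not tested. Leaving out 1 fraction at a time gave 14 to 21 coronal calls (10 to 17 with that difference), against 29.6% to 40.5% of all tested probes. It gave 4 to 8 sagittal calls (4 to 7), the fewest without fraction 6, against 4.58% to 12.6% of all tested probes. In the horizontal series it left 1 array in a block. Of 629 refits of single called members, 531 stayed called in the same direction, 98 lost the call and 0 reversed. Most of these refits left out 1 fraction or rescaled the same arrays, and so shared nearly all data with the reported fit. The number of member pairs with an r of at least 0.85 was 3 or 4 in the settings run. Slide as a term was not run in the horizontal series, where fractions 3 and 4 alone lay on slide 5 and cannot be told apart from it. No paired analysis was possible because equal fraction numbers in different series mark positions along different axes of different mice. Members near background, such as Dkk1, Wnt8b and Wnt10b, are limited by signal over background.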
